A study of Danio rerio with 16 samples.

Results

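The genes described here encode, in the nuclear genome, the subunits of the mitochondrial respiratory chain and of the ATP synthase, together with factors that build or inhibit these machines. All features whose symbol begins with nduf, sdh, uqcr or atp5, or with cox followed by a digit, were taken, which gave 110 of the 25433 features of the table. Of these, 40 are named as subunits of complex I, 5 of complex II, 8 of complex III, 18 of complex IV and 17 of complex V, 20 as assembly factors and 2 as the ATP synthase inhibitor. The rule used the symbols only and no measured value, but it was set with earlier results of these data known.

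The measurements are single-cell RNA-seq of zebrafish Tg(mpx:Dendra2) embryos, in which the promoter of mpx (myeloperoxidase) drives Dendra2, a protein that is converted from green to red by light. Heads were photoconverted at 34 and 44 hours post fertilization (hpf), and sorted red cells stood for neutrophils born in the rostral blood island (RBI-derived) and sorted green cells for neutrophils born in the caudal hematopoietic tissue (CHT-derived). In the cut groups the fin was transected at 54 hpf and cells were sorted 3 h later, and the normal groups were not transected. The 4 groups were RBI-derived cut, CHT-derived cut, RBI-derived normal and CHT-derived normal, each with 1 library, and the colors came from 1 pool of embryos for cut and 1 for normal. All 4 groups carry the same transgene, embryos were pooled, and each sorted color is enriched for its origin, not pure. The labels code the colors by letters, and reading them as red and green is an inference.

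The mpx promoter is strong in neutrophils and weak in macrophages, so sorted fluorescent cells can hold both, and the libraries did. Cells were kept at 1000 or more unique molecular identifiers (UMIs, each standing for 1 captured RNA molecule), 300 to 7500 detected genes and at most 10% of UMIs from mitochondrial genes. Neutrophils were the cells with at least 1% of UMIs from lyz, a lysozyme gene of zebrafish neutrophils, which left 1238 in RBI-derived cut, 1172 in CHT-derived cut, 957 in RBI-derived normal and 675 in CHT-derived normal, 4042 in all. Macrophages were cells under that limit with 3 or more UMIs from mfap4, mpeg1.1, marco, fgl2a, lgals3bpb and c1qb, and numbered 230, 1001, 44 and 550 in the same order. The remaining 161, 752, 195 and 624 cells are called other cells. The RBI-derived normal macrophages rest on 44 cells, and every value from them is correspondingly loose.

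The classes carried their own markers. A list of 7 further neutrophil genes took 2.34 to 3.98% of neutrophil UMIs and 0.0548 to 0.0907% of macrophage UMIs. A list of 7 further macrophage genes took 0.455 to 0.613% of macrophage UMIs and 0.0718 to 0.103% of neutrophil UMIs. The 6 macrophage genes of the rule, which define the class, took 0.297 to 0.483% of macrophage UMIs and at most 0.0285% of neutrophil UMIs. That highest value came from CHT-derived cut, where 195 of 1172 neutrophils had 3 or more macrophage UMIs against 0 to 8 neutrophils in the other libraries. Doublets were not removed, and where leaving those cells out changed a call of a gene named below, this is given beside it. Levels of CHT-derived cut neutrophils below keep those cells unless stated, and leaving them out moved many of these levels. Other cells of RBI-derived cut held 0.7003% of neutrophil marker UMIs and 0.00397% of muscle marker UMIs, while the other cells of the other libraries held 0.0328 to 0.110% and 1.1 to 1.62%. Library totals were 7409098 to 17303744 UMIs, 212 cells lay between 0.5 and 2% lyz, and pairs of libraries shared 1 to 9 cell barcodes.

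Electrons from food enter the chain at complex I, which oxidizes NADH, or at complex II, which oxidizes succinate and is also an enzyme of the tricarboxylic acid (TCA) cycle. They pass through complex III and cytochrome c to oxygen at complex IV, cytochrome c oxidase, and the proton gradient that results drives complex V, the ATP synthase. Complexes I, III, IV and V combine subunits encoded in the nucleus with subunits encoded in the mitochondrial DNA, while complex II is encoded in the nucleus alone. Several complex IV subunits exist as paired isoforms that in mammals are divided between muscle and other tissues. Neutrophils are known as strongly glycolytic cells with few mitochondria, and macrophages as cells whose respiration changes with their activation.

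Respiratory chain transcripts took a smaller share of the RNA of neutrophils than of macrophages in every library. They made up 2.04% of neutrophil UMIs in RBI-derived cut, 2.12% in CHT-derived cut, 1.71% in RBI-derived normal and 1.75% in CHT-derived normal, a mean of 1.90 ± 0.204% (SD, n = 4). In macrophages the shares were 2.77, 2.86, 2.70 and 2.61% in the same order, a mean of 2.73 ± 0.106%. Other cells had 1.97, 2.45, 2.04 and 2.39%, a mean of 2.21 ± 0.242%. The neutrophil and macrophage ranges did not overlap. The widest exact binomial 95% interval of these shares, that of the RBI-derived normal macrophages, was 2.64 to 2.76%, and all intervals in the text cover counting error only.

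A single gene weighs on these shares. Lyz alone took 8.50, 11.9, 13.4 and 15.5% of neutrophil UMIs in RBI-derived cut, CHT-derived cut, RBI-derived normal and CHT-derived normal. With lyz left out of the total the neutrophil mean was 2.17%, still below all 4 macrophage values and close to the other cells. Droplets with 10 to 100 UMIs, which hold free RNA, had 2.37, 2.52, 2.00 and 2.17% of their UMIs in these genes, between neutrophils and macrophages of the same library.

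**Figure D1:**
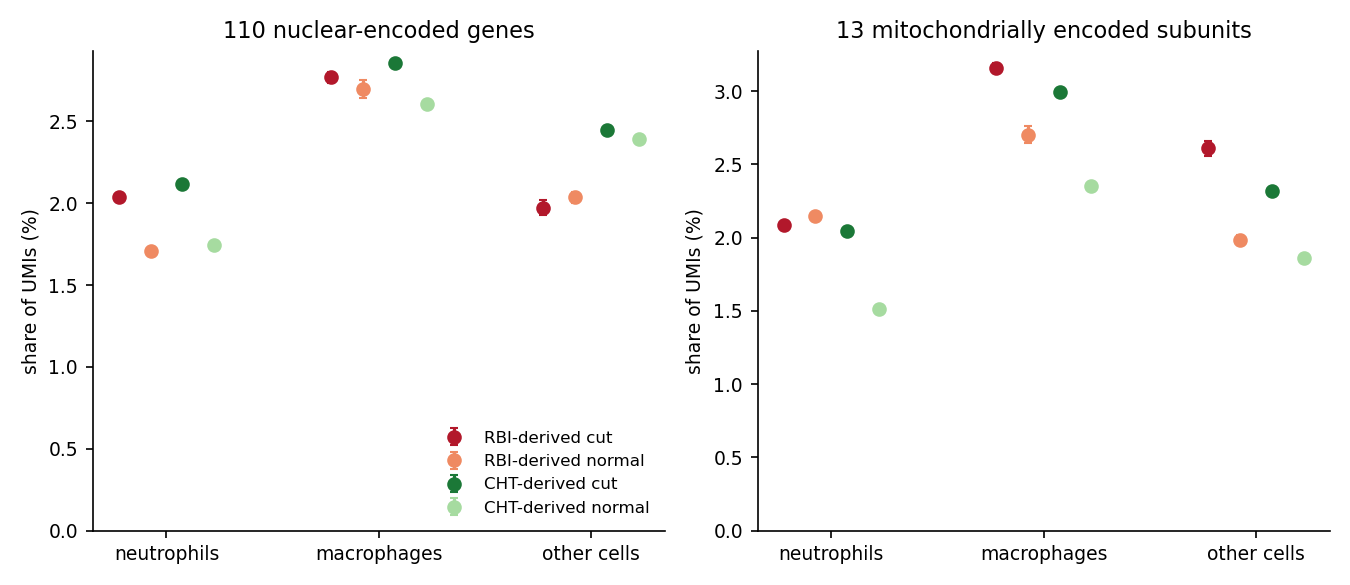
Percent of UMIs in the 110 respiratory chain genes (left) and in the 13 subunits encoded in mitochondrial DNA (right) for neutrophils, macrophages and other cells, 1 point per library (colors) with the exact 95% counting interval. For the 110 genes neutrophils lay between 1.71 and 2.12% and macrophages between 2.61 and 2.86%, with no overlap.

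The difference was not spread evenly over the complexes. In RBI-derived cut, complex I took 0.387% of neutrophil UMIs and 0.530% of macrophage UMIs, complex II 0.028% and 0.056%, complex III 0.183% and 0.275%, complex IV 0.713% and 0.881%, and complex V 0.578% and 0.882%. The inhibitor genes went the other way, with 0.061% in neutrophils and 0.047% in macrophages. The other libraries had the same orders, except that the inhibitor share in RBI-derived normal was 0.046% in both classes.

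Levels from here on are counts per 1000000 UMIs (CPM) after TMM scaling, which sets the bulk of genes of the summed cells equal between classes and libraries. Since 1 tag is counted per molecule, the transcript's length does not weigh on these levels. How completely each gene was counted was not tested, so orders of genes below are orders of counted UMIs. In neutrophils the highest means over the 4 libraries were those of cox7c (1773 ± 254 CPM), a small subunit of complex IV, ndufa4l (1218 ± 122 CPM), whose mammalian relative NDUFA4 is now counted with complex IV, and cox7b (1148 ± 162 CPM), also of complex IV. Of complex V the leading pair was atp5f1e (1091 ± 176 CPM), the epsilon subunit of the catalytic head, and atp5mc3b (726 ± 37.2 CPM), a copy of subunit c, which forms the rotating ring in the membrane. Complex III was led by uqcrq (738 ± 126 CPM) and uqcrb (435 ± 56.9 CPM), complex I after ndufa4l by ndufa1 (327 ± 33.6 CPM), and complex II by sdhb (128 ± 11.1 CPM), its iron-sulfur subunit, and sdhc (111 ± 8.08 CPM), a membrane anchor. Among the assembly factors cox17 (687 ± 96.2 CPM), which carries copper to complex IV, exceeded sdhaf4 (124 ± 23.5 CPM), which helps to assemble complex II. The members ndufs1 and ndufa9b had 0 UMIs in the kept cells, and sdhda, ndufa4l2b, ndufa4l2a and cox4i1l had 12, 9, 4 and 18 UMIs.

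Neutrophils were set against macrophages on the 4 libraries' sums with edgeR's quasi-likelihood test and a term for the library. The 4 libraries are different conditions from 2 pools of embryos, so p-values measure the spread over these libraries only. Of 104 members with at least 50 UMIs, 10 were higher (9.62%) and 39 lower (37.5%) in neutrophils at an adjusted p under 0.05. Over all 10293 genes tested, 23.8% were higher and 23.8% lower. The median log2 fold change was −0.26 for the members and 0.02 over all genes. The members were well counted, with a median of 4656.5 UMIs against 529 over all genes tested. In 9 members the 4 neutrophil values all lay above the 4 macrophage values and in 31 all lay below, against 19.4% and 17% of all genes tested.

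These counts depend on the scaling and on 1 library. With CPM not scaled by TMM, which moved the median of all genes to −0.35, 4 members were higher and 81 lower. Over all 10293 genes tested, 1473 were higher and 3685 lower in that setting. Without CHT-derived normal 19 of 103 members were lower, against 1440 of all 9046 genes tested. With each cell thinned to 1000 UMIs, 5 members were lower and 8 higher of 90 tested. Over all 5793 genes tested, 681 were lower and 1223 higher, so lower members were not in excess with thinned cells. The neutrophils with 3 or more macrophage UMIs mattered less, since leaving them out gave 10 higher and 42 lower.

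**Figure D2:**
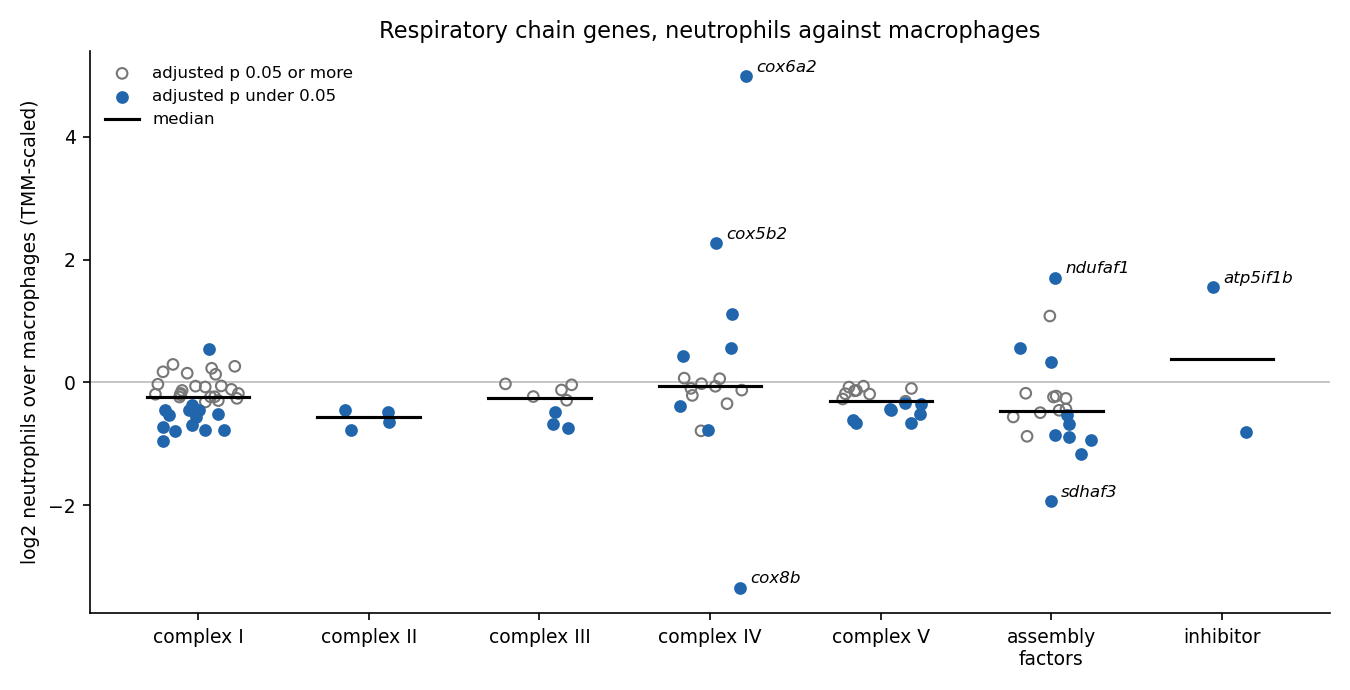
Log2 fold change of each tested member, neutrophils over macrophages after TMM scaling (vertical axis), grouped by complex, with filled points for members past adjusted p 0.05 and a line at each median. Complex II lies wholly below 0, and complex IV holds the widest spread, from −3.34 (cox8b) to 4.98 (cox6a2). Without TMM scaling 81 members were lower and 4 higher, against 3685 and 1473 of all 10293 genes tested.

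By complex, and beside the 23.8% higher and 23.8% lower over all genes tested, all 4 tested subunits of complex II were lower in neutrophils (median −0.57), as were 13 of 36 of complex I (median −0.23), 3 of 8 of complex III (median −0.26) and 8 of 17 of complex V (median −0.31). Complex I had 1 higher member, ndufa4l, and complexes II, III and V had none. Complex IV had 5 of 17 subunits higher (29.4%) and 3 lower (17.6%), with a median of −0.06. The assembly factors had 3 higher and 7 lower of 20 (median −0.47), and the inhibitor pair 1 of each.

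The most uneven member was cox6a2, a copy of subunit 6a of complex IV whose mammalian counterpart is the heart and skeletal muscle isoform. It stood at 84.6, 59.9, 107 and 78.8 CPM in neutrophils of RBI-derived cut, CHT-derived cut, RBI-derived normal and CHT-derived normal, against 2.16, 2.24, 0 and 2.47 CPM in macrophages. All 4 neutrophil values lay far above all 4 macrophage values, and the 0 in RBI-derived normal macrophages allows up to 10.3 CPM at that depth. The log2 fold change was 4.98 (SE 0.25, adjusted p = 2.73e-08), and the sums behind it were 270, 240, 326 and 317 UMIs in neutrophils and 2, 11, 0 and 12 UMIs in macrophages. Other cells had 11.3, 2.52, 0.898 and 5.05 CPM, and the highest of these was the library whose other cells carried neutrophil markers and almost no muscle markers. The other cells of the libraries with 1.1 to 1.62% muscle marker UMIs had 0.898 to 5.05 CPM. These levels rest on few cells. A cox6a2 UMI was seen in 5 of 161 other cells of RBI-derived cut and 10 of 752 of CHT-derived cut. In the normal libraries it was seen in 1 of 195 RBI-derived and 19 of 624 CHT-derived other cells. Muscle cells were not separated from this mixture, and the source of the RBI-derived cut value was not tested.

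The signal of cox6a2 was spread over many neutrophils. At least 1 UMI was seen in 16.4, 15.4, 22.9 and 29.2% of neutrophils of RBI-derived cut, CHT-derived cut, RBI-derived normal and CHT-derived normal, and in 0.870, 1.1, 0 and 1.64% of macrophages, whose median depths were 4168.5, 5349, 6862 and 9264 UMIs against 3532.5, 4105, 4869 and 8900 UMIs in neutrophils. The 0 of 44 macrophages allows a share of cells with a UMI of up to 6.82%, which corresponds to 3 cells. After thinning every cell to 1000 UMIs the shares were 5.25, 4.86, 6.27 and 3.56% in neutrophils and 0, 0.0999, 0 and 0.545% in macrophages. Free RNA in the droplets held 36.3, 10.2, 67.3 and 46.7 unscaled CPM of it, and the macrophages of the same libraries 2.04, 2.01, 0 and 2.31 unscaled CPM.

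Its partner cox6a1, the general form of the subunit, was 755.7, 692.9, 708.9 and 684.8 CPM in neutrophils and 833.5, 868.5, 859.3 and 736.5 CPM in macrophages and did not pass the test (log2 fold change −0.21, SE 0.11, adjusted p = 0.143, and −0.61, called lower with an adjusted p of 0.000927, without TMM scaling). Accordingly cox6a2 made up 10.1, 7.95, 13.1 and 10.3% of all cox6a UMIs in neutrophils and 0.259, 0.257, 0 and 0.334% in macrophages.

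The opposite pattern was that of cox8b, a copy of subunit 8 whose mouse counterpart is found in muscle and brown fat. It stood at 3.45, 10.5, 3.6 and 4.72 CPM in neutrophils of RBI-derived cut, CHT-derived cut, RBI-derived normal and CHT-derived normal, against 54.1, 48.1, 89.0 and 58.2 CPM in macrophages and 9.42, 10.8, 8.09 and 11.2 CPM in other cells. Neutrophils and macrophages did not overlap (log2 fold change −3.34, SE 0.32, adjusted p = 3.64e-06), while the CHT-derived cut neutrophils lay within the range of the other cells. The highest neutrophil value belonged to CHT-derived cut and was 8.25 CPM without the neutrophils that had 3 or more macrophage UMIs. Macrophages also exceeded the other cells (log2 fold change 2.52, SE 0.27, adjusted p = 3.1e-05). A cox8b UMI was seen in 18.3, 16.9, 43.2 and 31.3% of macrophages and in 0.808, 3.24, 1.15 and 2.37% of neutrophils.

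The general form cox8a was 889, 830, 925 and 1035 CPM in neutrophils and 623, 669, 750 and 682 CPM in macrophages, with no overlap (log2 fold change 0.43, SE 0.12, adjusted p = 0.00842, and 0.04, not called, without TMM scaling). As a result cox8b was 0.386, 1.25, 0.387 and 0.454% of cox8 UMIs in neutrophils and 7.99, 6.71, 10.6 and 7.86% in macrophages. In both classes the general copy remained by far the more abundant.

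**Figure D3:**
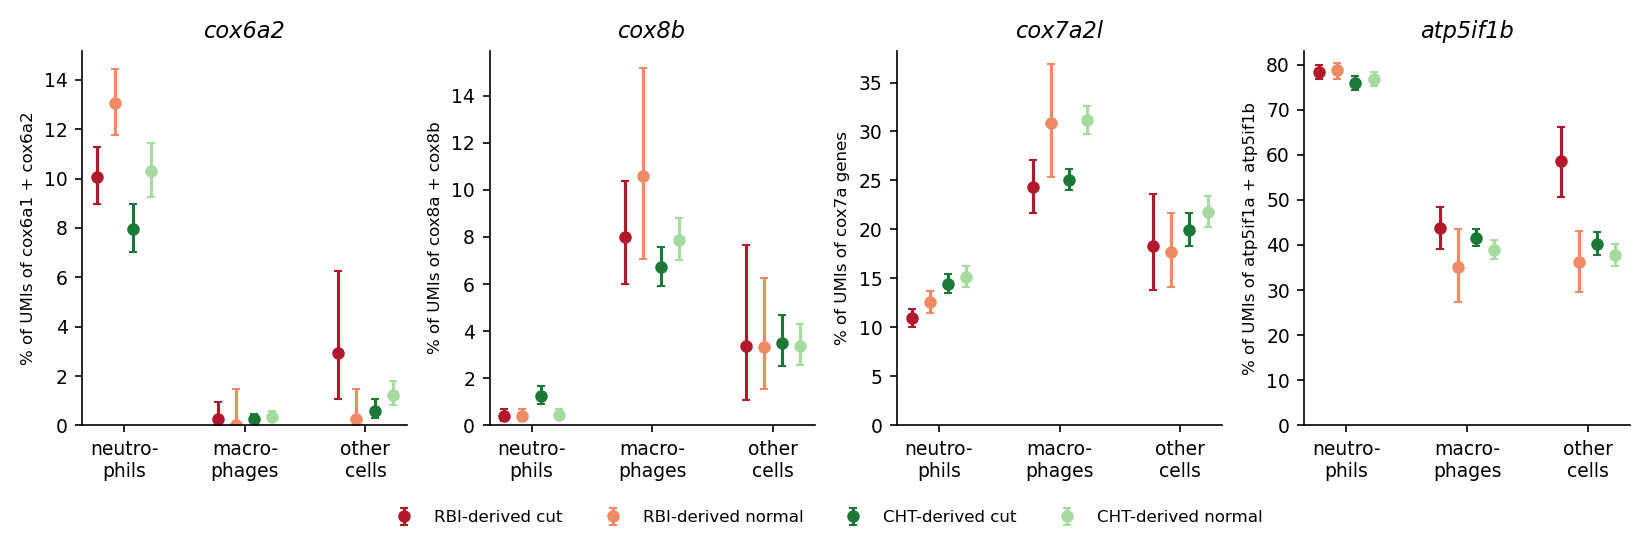
Share of the UMIs of a subunit that came from 1 copy (percent), in neutrophils, macrophages and other cells, 1 panel per copy and 1 point per library (colors), with exact 95% counting intervals. cox6a2 and atp5if1b took larger shares in neutrophils, and cox8b and cox7a2l larger shares in macrophages, in each of the 4 libraries.

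The relatives of subunit 7a also moved apart. cox7a2a was 1262, 1105, 935 and 892 CPM in neutrophils and 807, 896, 603 and 574 CPM in macrophages (log2 fold change 0.55, SE 0.12, adjusted p = 0.00193, and 0.16, not called, without TMM scaling). cox7a2l, whose mammalian counterpart helps to join complexes III and IV into supercomplexes, was 155, 187, 135 and 160 CPM in neutrophils and 260, 301, 274 and 263 CPM in macrophages, with no overlap (log2 fold change −0.78, SE 0.13, adjusted p = 0.00035). Its share of cox7a UMIs was 10.9 to 15.2% in neutrophils and 24.3 to 31.2% in macrophages. cox7a1, the muscle form in mammals, stayed between 1.08 and 10.3 CPM in both classes and did not pass the test (adjusted p = 0.0969, and 0.0243 for a lower level without TMM scaling).

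The remaining copies of complex IV subunits differed less or were rare. ndufa4l, counted by its symbol with complex I, was 1250, 1050, 1342 and 1229 CPM in neutrophils and 779, 880, 835 and 823 CPM in macrophages, with no overlap (log2 fold change 0.55, SE 0.12, adjusted p = 0.00224, and 0.15, not called, without TMM scaling). cox5b2 had 102 UMIs in all, at 2.94 to 5.99 CPM in neutrophils and 0 to 1.43 CPM in macrophages (log2 fold change 2.27, SE 0.48, adjusted p = 0.0019). The 0 was that of RBI-derived normal macrophages, where it allows up to 10.3 CPM, above the neutrophil range. In RBI-derived cut macrophages the floor of 3 UMIs is 3.25 CPM, within that range. cox4i2, the lung isoform in mammals, was 3.76, 3.99, 14.7 and 8.70 CPM in neutrophils and 0, 2.04, 0 and 5.55 CPM in macrophages, so that the ranges overlapped, and its call (log2 fold change 1.12, SE 0.43, adjusted p = 0.048) was lost when RBI-derived cut, CHT-derived cut or RBI-derived normal was left out. The zeros in RBI-derived cut and normal macrophages allow up to 3.25 and 10.3 CPM. The cox4i2 call was also lost without TMM scaling (0.78, adjusted p = 0.181), with DESeq2 and without the library term. It was lost as well with all 3 classes in 1 fit and in cells with at most 5% mitochondrial UMIs. The common forms cox4i1, cox5aa, cox5ab, cox6b1 and cox6b2 and the other relative, ndufa4, did not pass the test, with log2 fold changes of −0.02, 0.06, −0.35, −0.13, −0.06 and 0.29. Without TMM scaling the 5 common forms were called lower, at −0.42, −0.34, −0.74, −0.52 and −0.46. cox5ab was also called lower without the neutrophils that had 3 or more macrophage UMIs (−0.34, adjusted p = 0.0421) and in cells with 2000 or more UMIs (−0.34, adjusted p = 0.0362).

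The ATP synthase inhibitor also changed its copy. ATP5IF1 binds the enzyme and blocks it from running backward and consuming ATP, and zebrafish have the genes atp5if1a and atp5if1b. atp5if1b was 677, 576, 551 and 548 CPM in neutrophils of RBI-derived cut, CHT-derived cut, RBI-derived normal and CHT-derived normal, against 220, 230, 175 and 174 CPM in macrophages and 181, 152, 67.4 and 112 CPM in other cells. Neutrophils averaged 2.94 times the macrophage level (log2 fold change 1.56, SE 0.13, adjusted p = 1.27e-06), with no overlap.

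atp5if1a had the reverse order, at 186, 183, 149 and 166 CPM in neutrophils and 283, 323, 322 and 274 CPM in macrophages (log2 fold change −0.81, SE 0.13, adjusted p = 0.000357). With cells thinned to 1000 UMIs its adjusted p was 0.0626. The b copy thus made up 78.5, 75.9, 78.7 and 76.8% of atp5if1 UMIs in neutrophils and 43.8, 41.6, 35.2 and 38.9% in macrophages.

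Assembly factors changed in both directions. ndufaf1, a factor for complex I, was 76.8, 75.6, 69.7 and 87.8 CPM in neutrophils, 24.9, 22.6, 27.4 and 24.5 CPM in macrophages and 17.0, 15.4, 6.29 and 15.5 CPM in other cells, and no neutrophil value was near the others (log2 fold change to macrophages 1.71, SE 0.16, adjusted p = 3.8e-06). sdhaf4 (log2 fold change 0.56, SE 0.17, adjusted p = 0.0192) and cox17 (0.33, SE 0.12, adjusted p = 0.0398) were the other higher ones, but both calls were lost without TMM scaling, where cox17 was at −0.06. The cox17 call was also lost without RBI-derived cut or without CHT-derived normal.

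The lower ones were rarer transcripts. sdhaf3, another factor of complex II, was 0.940, 4.49, 1.31 and 5.22 CPM in neutrophils and 14.1, 11.2, 24.0 and 11.9 CPM in macrophages, with no overlap (log2 fold change −1.94, SE 0.43, adjusted p = 0.00295). ndufaf4 was 3.45, 7.73, 4.91 and 7.46 CPM in neutrophils and 13, 14.5, 20.5 and 13.4 CPM in macrophages (log2 fold change −1.17, SE 0.27, adjusted p = 0.00381). ndufaf5 was lower as well (−0.94, SE 0.27, adjusted p = 0.0124), with a CHT-derived normal neutrophil value of 10.9 CPM inside the macrophage range of 9.78 to 16 CPM, and this call was lost without RBI-derived cut. The other lower factors were cox16, cox20, sdhaf2 and ndufaf3, which lie outside the naming rule and were added to complete the count.

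Complex II was lower throughout. sdha, the flavoprotein that oxidizes succinate, was 76.5, 66.8, 91.9 and 87.5 CPM in neutrophils and 141, 121, 113 and 122 CPM in macrophages (log2 fold change −0.65, SE 0.15, adjusted p = 0.0036). sdhb was 143, 118, 121 and 130 CPM in neutrophils and 189, 181, 157 and 166 CPM in macrophages (−0.45, SE 0.13, adjusted p = 0.0147). sdhc and sdhdb, which anchor the enzyme in the membrane, fell by 0.49 and 0.78 on the log2 scale (adjusted p = 0.0106 and 0.000656). None of the 4 overlapped between the classes. With cells thinned to 1000 UMIs the same genes had log2 fold changes of −0.34 to −0.45 and none passed the test, without CHT-derived normal sdhb and sdhc did not pass it, and without CHT-derived cut sdhb did not.

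In complex I the lowest was ndufv1, the subunit that binds NADH, at 34.5, 37.2, 38.3 and 48.2 CPM in neutrophils and 73.6, 78.2, 71.9 and 82.7 CPM in macrophages (log2 fold change −0.96, SE 0.15, adjusted p = 0.00022, and 0.0817 with cells thinned). Complex III had uqcrc1, a core subunit, at −0.74 (SE 0.14, adjusted p = 0.000961), uqcrh at −0.67 and uqcrc2b at −0.49 (the last not called without RBI-derived cut or without CHT-derived normal). With cells thinned their adjusted p-values in edgeR's test were 0.0665, 0.0615 and 0.0605, and without the library term uqcrc1 and uqcrc2b were not called. uqcrc2b was also not called with DESeq2 or without cycling cells. The most abundant members of complex III, uqcrq and uqcrb, did not pass the test, but were called lower without TMM scaling (−0.42 and −0.52). In complex V the copies of subunit c were lower or below 0, with atp5mc3b at 696, 737, 697 and 774 CPM in neutrophils and 1112, 1107, 1191 and 1166 CPM in macrophages (−0.66, SE 0.11, adjusted p = 0.000372), atp5mc3a at −0.66 (adjusted p = 0.00202) and atp5mc1 at −0.31 (adjusted p = 0.0577). With cells thinned atp5mc3a was not called (−0.40, adjusted p = 0.191). atp5mc1 was called lower without TMM scaling (−0.70, adjusted p = 0.00107) and without CHT-derived cut (−0.36, adjusted p = 0.0435). These copies encode nearly the same protein, and how the counting split reads among them is uncertain.

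Genes around the chain were counted from lists of textbook members, to be read beside the 23.8% higher and 23.8% lower over all genes tested. These lists, too, were chosen with earlier results of these data known. Of the 13 subunits encoded in mitochondrial DNA, 3 were lower in neutrophils than in macrophages (mt-atp6, mt-nd1 and mt-nd2) and none higher. Their median was −0.16, so by TMM scaling the mitochondrial list had a smaller median difference than the nuclear members. The summed share of the 13 subunits was 2.08, 2.05, 2.15 and 1.51% of UMIs in neutrophils and 3.16, 3.00, 2.70 and 2.36% in macrophages. Relative to the macrophage share, this gap was no smaller than that of the nuclear members, except in RBI-derived normal. A mixed list of electron carriers, coq genes of ubiquinone synthesis and assembly factors such as surf1 and sco1 had 3 of 20 higher and 8 lower. The 3 higher ones were the coq genes coq4, coq10b and coq8aa, so these counts do not describe electron carriers alone. The main cytochrome c gene, cycsb, averaged 589 CPM in neutrophils and 1227 CPM in macrophages (−1.07), cyc1, which carries the cytochrome c1 heme of complex III, 117 and 167 CPM (−0.53), and cycsa had 0 UMIs.

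The neighboring lists are read against the same 23.8% in each direction. Of 74 mitochondrial ribosomal protein genes, 51 were lower in neutrophils and 1 higher (median −0.67). Of 17 TCA cycle genes 10 were lower and 0 higher (median −0.55), led by the subunits of succinyl-CoA ligase, suclg2 (35.0 CPM in neutrophils, 253 CPM in macrophages), suclg1 (249 and 796 CPM) and sucla2 (69.9 and 231 CPM). Glycolysis had the reverse balance, with 8 of 19 higher and 4 lower (median 0.32). The 10 regulators of mitochondrial genes had 2 higher (20%) and 3 lower (30%), near the shares over all genes tested. Among them ppargc1b, a coactivator of mitochondrial gene expression, averaged 99.3 CPM in neutrophils and 263 CPM in macrophages (−1.42). The other named regulator, nrf1, a transcription factor of many respiratory chain genes, averaged 61.7 and 16.8 CPM (1.92). The genes named in these lists, apart from the cytochrome c genes and cyc1, were chosen after their values were seen.

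Against the other cells, a mixture of non-myeloid and unassigned cells, the direction rests on the scaling. By TMM scaling 54 of 104 members were higher (51.9%) and 2 lower (1.92%) in neutrophils, and without it 7 were higher and 49 lower, since TMM moved the median of all genes from −1.11 to 0.00. Over all 12257 genes tested, 33.9% were higher and 33.9% lower by TMM scaling, and 1935 were higher and 6928 lower without it. The members' median was 0.59. Without CHT-derived normal 24 of 101 members were higher, against 2705 of all 10173 genes tested, so higher members were not in excess there. The leading members were cox6a2 (log2 fold change 4.26, SE 0.43, adjusted p = 0.000235), cox17 (2.58), ndufaf1 (2.55), atp5if1b (2.28) and sdhaf4 (2.23), and the lower ones sdhaf3 (−1.40) and ndufaf4 (−0.94). The sdhaf3 call was lost without RBI-derived cut, without RBI-derived normal, without CHT-derived cut and without cycling cells, and the ndufaf4 call without CHT-derived cut and without cycling cells (−0.30, adjusted p = 0.505). cox17 was 826, 675, 624 and 621 CPM in neutrophils, 602, 567, 579 and 440 CPM in macrophages and 124, 160, 81.8 and 103 CPM in other cells, so that both myeloid classes lay apart from the other cells.

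Macrophages were higher than other cells in 84 of 103 members (81.6%) and lower in 1 (0.971%), ndufaf6, whose call was lost without RBI-derived normal, against 33.5% and 31.6% of all 12037 genes tested. The members' median was 0.90 and that of all genes 0.10. Without TMM scaling, where the median of all genes was −0.61, 21 were higher and 4 lower. In that setting 2283 of all 12037 genes tested were higher and 5424 lower, so the share of higher members was near the background. Without CHT-derived normal 36 of 97 members were higher, against 2282 of all 9521 genes tested. The leading members after cox8b were cox17 (2.24), ndufa4 (1.75), sdhaf4 (1.64) and sdha (1.6). With cells thinned ndufa4 was not called (0.47, adjusted p = 0.378). All 17 subunits of complex V and 31 of 36 of complex I were among the higher ones by TMM scaling.

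Cycling neutrophils, defined by 3 or more UMIs and at least 0.1% of UMIs from a list of cell cycle genes, numbered 125 of 1238 in RBI-derived cut, 184 of 1172 in CHT-derived cut, 127 of 957 in RBI-derived normal and 129 of 675 in CHT-derived normal. Of 99 members, 1 was higher (1.01%) and 14 lower (14.1%) in cycling than in non-cycling neutrophils, against 7.49% and 13.4% of all 8301 genes tested, so the share of lower members was near the background. The lower ones included 7 of 16 complex IV subunits and were led by sdhaf4 (−0.49, SE 0.11, adjusted p = 0.00134), sdhb (−0.37), cox17 (−0.36), cox5aa (−0.35) and cox7c (−0.32). The only higher one, atp5mc1 (0.22, SE 0.08, adjusted p = 0.0462), lost its call in every leave-out of a library. Its call was also lost without the neutrophils that had 3 or more macrophage UMIs. Without TMM scaling 9 members were higher and 2 lower, against 903 and 578 of all 8301 genes tested, so the direction rests on the scaling. DESeq2 called 3 lower, against 424 of all genes tested. Without the neutrophils that had 3 or more macrophage UMIs 25 were lower, against 1474 of all 8136 genes tested. Without the library term 0 members passed in either direction.

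Within the neutrophils the share per cell had a low tail in both normal libraries. The median share was 2.02% in RBI-derived cut, 2.16% in CHT-derived cut, 1.67% in RBI-derived normal and 1.67% in CHT-derived normal. Cells under 1% numbered 20 of 1238 (1.62%) in RBI-derived cut, 8 of 1172 (0.683%) in CHT-derived cut, 211 of 957 (22.1%) in RBI-derived normal and 72 of 675 (10.7%) in CHT-derived normal. The limit of 1% was set after the distributions were seen. Each condition has 1 library, and no test was made. Among cells with 2000 or more UMIs the shares were 0.288, 0.372, 10.0 and 8.28%.

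**Figure D4:**
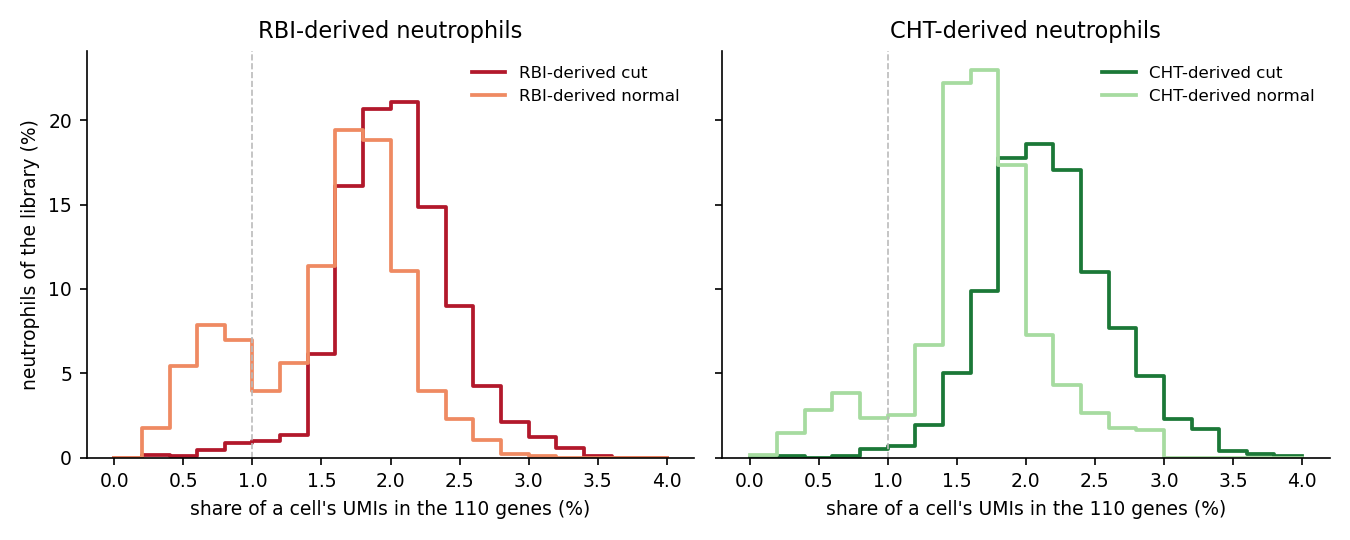
Distribution over neutrophils of the percent of a cell's UMIs in the 110 genes (horizontal axis, against the percent of neutrophils on the vertical axis), cut and normal in 1 panel per origin, with the 1% limit dashed. Under the limit lay 1.62 and 0.683% of cells in RBI-derived and CHT-derived cut, and 22.1 and 10.7% in RBI-derived and CHT-derived normal.

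The cells of the tail differed in more than these genes. In RBI-derived normal they had a median of 1699 UMIs against 5810 UMIs in the remaining neutrophils, 23.7% against 11.8% lyz, 5.65% against 1.69% of UMIs from the 13 mitochondrial subunits, and 4.21% against 18.3% from 94 ribosomal protein genes. In CHT-derived normal the same medians were 2570 against 9268 UMIs, 34.6% against 14.5%, 4.00% against 1.35%, and 2.72% against 15.7%. So ribosomal protein transcripts took a low share of the UMIs of these cells, while mitochondrial transcripts and lyz took a high share. Since these cells had fewer UMIs, a higher share does not mean more UMIs per cell. The low share of nuclear respiratory chain transcripts follows from the 1% limit itself, so the ratios of single members are only a description. Among members with 50 or more UMIs there, ndufa4l was at 0.591 and 0.737 of its level in the remaining cells of RBI-derived and CHT-derived normal, cox8a at 0.398 and 0.368, and cox7c at 0.312 and 0.366. The part of depth or cell quality in this tail was not tested.

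The limit removes cells by the share itself, so what follows is a description. With cells under 1% left out, the pooled share was 2.05% in RBI-derived cut against 1.81% in RBI-derived normal, and 2.12% in CHT-derived cut against 1.79% in CHT-derived normal.

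Conditions were compared gene by gene as the ratio of scaled CPM between 2 libraries, with the exact 95% interval of counting error. Each condition has 1 library, and no test was made. A fit of origin and transection as added terms over the 4 libraries, which would leave 1 residual degree of freedom, was not run. Cut and normal also came from different pools of embryos, which cannot be told apart from the transection. A member was counted when its ratio passed 1.5-fold among genes with at least 50 UMIs.

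In RBI-derived neutrophils, cut against normal, 0 of 91 members were past 1.5-fold higher and 3 lower, against 9.86% and 8.81% of all genes tested. In CHT-derived neutrophils, cut against normal, 3 of 97 were higher and 5 lower, against 10.7% and 14.3%. Members past the limit were thus no more frequent than other genes. The members' median log2 ratio was 0.12 in RBI-derived and 0.04 in CHT-derived neutrophils, against 0.04 and −0.08 over all genes tested. Without TMM scaling it was 0.23 and 0.26, against 0.14 and 0.14 over all genes tested. sdhaf4 was the highest of the well counted members (200 or more UMIs) in both, at 148 CPM in RBI-derived cut against 103 CPM in RBI-derived normal (log2 ratio 0.52, interval 0.31 to 0.73) and at 140 CPM in CHT-derived cut against 104 CPM in CHT-derived normal (0.43, 0.24 to 0.62). It was followed by ndufb11 of complex I in RBI-derived neutrophils (0.49, 0.24 to 0.74) and by uqcrq in CHT-derived neutrophils (0.32, 0.25 to 0.40).

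On the low side stood ndufa9a, an accessory subunit of complex I, at 26.3 CPM in RBI-derived cut against 45.5 CPM in RBI-derived normal (−0.79, −1.20 to −0.39) and at 41.2 CPM in CHT-derived cut against 60.2 CPM in CHT-derived normal (−0.55, −0.84 to −0.26). ndufa4 was at 35.4 CPM in RBI-derived cut against 51.4 CPM in RBI-derived normal (−0.54, −0.90 to −0.18), and cox10, which makes the heme of complex IV, at 20.5 CPM in CHT-derived cut against 34.6 CPM in CHT-derived normal (−0.76, −1.17 to −0.35).

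**Figure D5:**
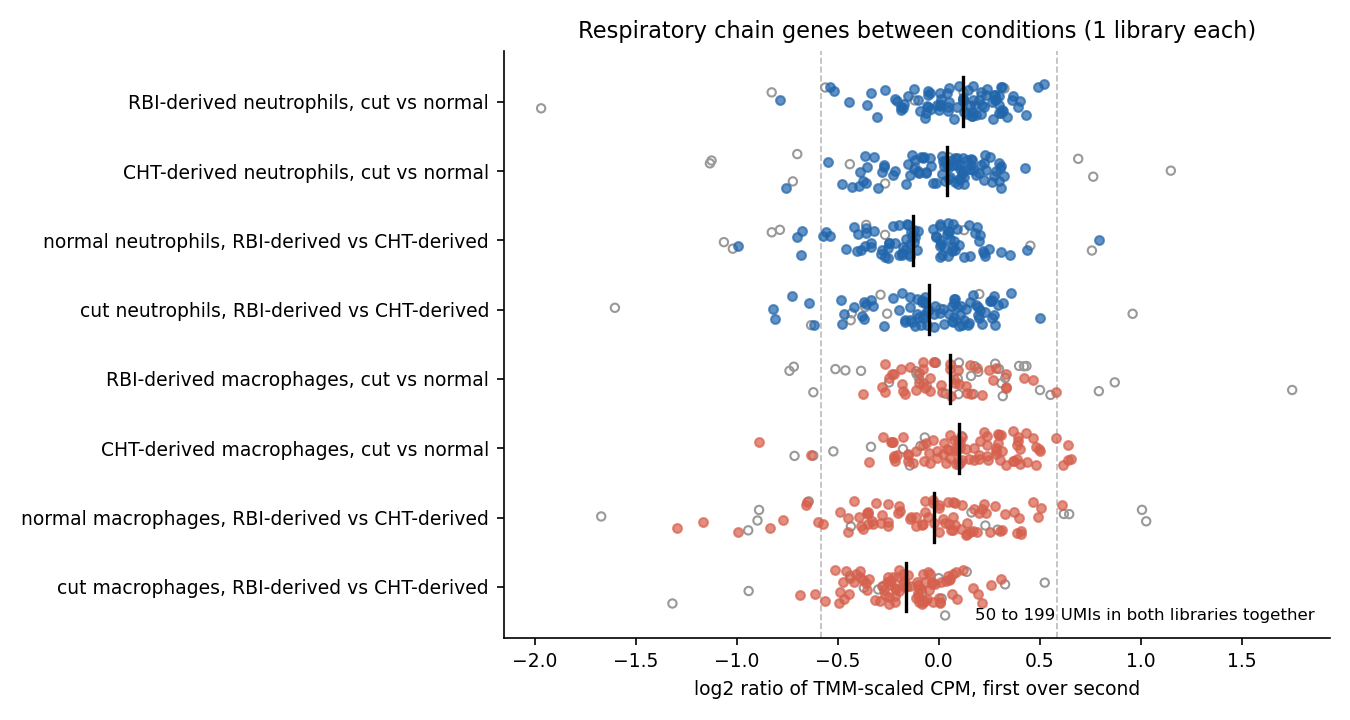
Log2 ratios of TMM-scaled CPM of the members between conditions, cut over normal and RBI-derived over CHT-derived, in neutrophils (blue) and macrophages (red), with open points for members under 200 UMIs, a bar at each median and the 1.5-fold limits dashed. The medians lie between −0.16 and 0.12 by TMM scaling, and between −0.18 and 0.26 without it. By TMM scaling 4 to 18 members per comparison pass the limits except in RBI-derived neutrophils, cut over normal, where 3 do.

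Macrophages, cut against normal, had 3 of 81 members higher and 3 lower in the RBI-derived libraries (17.8% and 7.3% of all genes), and 4 of 98 higher and 4 lower in the CHT-derived libraries (11.9% and 14.3%). Among members with 200 or more UMIs, sdhaf4 was the highest in CHT-derived macrophages, at 106 CPM in cut against 67.3 CPM in normal (0.66, 0.45 to 0.86), followed by cox7a2a, at 896 CPM in cut against 574 CPM in normal (0.64, 0.57 to 0.71). In RBI-derived macrophages sdhaf4, with 117 UMIs in cut and 11 in normal, was at 127 against 37.7 CPM, so this factor was higher in cut in both origins and both classes, while in other cells it was 26.4 and 23.5 CPM in cut against 28.8 and 25 CPM in normal. cox7a2a was likewise higher in cut in both origins and both classes, with log2 ratios of 0.43 in RBI-derived neutrophils, 0.31 in CHT-derived neutrophils and 0.42 in RBI-derived macrophages.

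Among members with 200 or more UMIs the lowest in CHT-derived macrophages was ndufa4, at 17.3 CPM in cut against 32.1 CPM in normal (−0.89, −1.29 to −0.50). In RBI-derived macrophages the extremes of such members were uqcrb (0.58, 0.28 to 0.89) and ndufs5 (0.46, −0.01 to 0.97) on the high side and atp5mc3a (−0.38, −0.66 to −0.09) and cox5ab (−0.28, −0.64 to 0.10) on the low side, and the intervals of ndufs5 and cox5ab included 0.

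Between origins, RBI-derived against CHT-derived normal neutrophils had 2 of 94 members higher and 8 lower (7.86% and 12.7% of all genes), and cut neutrophils 1 of 93 higher and 7 lower (14% and 14.1%). uqcrc1 stood out on the low side, at 54.6 CPM in RBI-derived normal against 109 CPM in CHT-derived normal neutrophils (−1.0, −1.26 to −0.74) and at 48.3 CPM in RBI-derived cut against 84.8 CPM in CHT-derived cut neutrophils (−0.81, −1.10 to −0.53). Its level also differed this way in macrophages, at 103 CPM in RBI-derived normal against 162 CPM in CHT-derived normal and 86.6 CPM in RBI-derived cut against 139 CPM in CHT-derived cut, and in other cells, at 62.9 against 101 CPM in normal and 54.6 against 81.5 CPM in cut. The difference was therefore shared by all 3 classes of a library, and the part of the library in it was not tested.

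cox6a2 was higher in RBI-derived neutrophils in both normal and cut, at 107 CPM in RBI-derived normal against 78.8 CPM in CHT-derived normal (0.44, 0.21 to 0.66) and at 84.6 CPM in RBI-derived cut against 59.9 CPM in CHT-derived cut (0.50, 0.24 to 0.76), both within 1.5-fold. ndufa4 was higher in RBI-derived normal than in CHT-derived normal neutrophils (51.4 against 29.6 CPM, 0.80, 0.44 to 1.15), and in RBI-derived cut than in CHT-derived cut neutrophils (35.4 against 18.2 CPM, 0.96, 0.52 to 1.40, on 113 and 73 UMIs). atp5f1e was also higher in both, at 1074 against 915 CPM in normal (0.23, 0.16 to 0.30) and at 1334 against 1041 CPM in cut (0.36, 0.29 to 0.42). Also low was sdhdb in normal neutrophils, at 55.0 CPM in RBI-derived against 89.3 CPM in CHT-derived (−0.70, −0.97 to −0.43).

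Macrophages, RBI-derived against CHT-derived, had 5 of 96 members higher and 13 lower in normal (8.2% and 26.6% of all genes), where 1 side rests on 44 cells, and 0 of 96 higher and 4 lower in cut (5.92% and 16.4%). Among members with 200 or more UMIs in normal macrophages, ndufa10 of complex I was among the low ones (14 against 524 UMIs, −1.17, −2.05 to −0.41), and cox8b (0.61, −0.03 to 1.19) and cox6b1 (0.50, 0.08 to 0.90) were highest. Among those in cut macrophages, uqcrc1 (−0.68, −1.04 to −0.35) and ndufa9a (−0.61, −1.05 to −0.20) were lowest, and ndufv3 (0.31, −0.03 to 0.64) and sdhaf4 (0.26, −0.04 to 0.55) highest, with intervals that included 0 for the last 2 and for cox8b. The cox8b level of macrophages and the cox6a2 level of neutrophils thus kept their order between the classes in all 4 conditions.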

How the data were processed

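The authors deposited 1 unfiltered matrix of whole-number UMI counts per gene and barcode for each of 4 libraries. The file headers name Cell Ranger 7.1.0, and the submitters' processing notes name Seurat and the genome build GRCz11. The 16 entries of the series map to the 4 matrices, 4 to each, so each condition is 1 sample. Seurat was not used here, and the unmapped value columns numbered 0.

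Cells were classed as described in the report, and counts were summed per class and library with Python 3.11.15 (numpy 2.4.6, pandas 2.3.3, scipy 1.17.1, figures with matplotlib 3.10.9). Classes were compared on these sums with edgeR 4.0.16 in R 4.3.3 (TMM, glmQLFit, glmQLFTest, a term for the library, genes with at least 50 UMIs, Benjamini-Hochberg over all genes tested, adjusted p under 0.05), checked on simulated sums with known changes. Conditions were compared by ratios of TMM-scaled CPM with exact conditional binomial 95% intervals and a limit of 1.5-fold. All 110 gene identifiers had a symbol in the name table, and 107 members were matched to a RefSeq gene. Those not matched were ndufa4l, ndufa4 and ndufa4l2b. No cells were removed as doublets. A floor of 3 UMIs was taken as what a count of 0 allows.

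The members and lists were chosen with earlier results of these data known. Members were named by rule: the 2 most abundant in neutrophils of each complex, the 5 highest and 5 lowest calls of each tested comparison, the 2 highest and 2 lowest ratios of each condition pair among members with at least 200 UMIs, and all copies of subunits that have several. 1 member that the rule names is not reported here. Promoter and protein sequences were not used here, and no coordinates are printed. The alternatives tried were DESeq2 1.42.0, its size factors, unscaled CPM, other limits on UMIs, mitochondrial share and lyz, a fold of 2, thinning to 1000 UMIs, no library term, and each library left out. Leaving out cycling cells in the comparisons of classes, and neutrophils with 3 or more macrophage UMIs in the cycling comparison, was added after the data were seen.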

Additional observations from a re-analysis of the deposited data

Results flagged for a closer look

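Among 138 sets of 4 library values, 4 had 1 library set apart from the others by Dixon's test, where chance gives about 1 in 20. cox6a2 in macrophages was 0 CPM in RBI-derived normal, against 2.165, 2.241 and 2.469 CPM in the others, and that library has 44 macrophages. ndufaf1 in other cells was 6.289 CPM in RBI-derived normal, against 16.95, 15.39 and 15.51 CPM. sdhb in other cells was 37.73 CPM in RBI-derived normal, against 64.05, 63.56 and 65.03 CPM. ndufaf5 in neutrophils was 10.94 CPM in CHT-derived normal, against 4.075, 5.234 and 4.989 CPM.

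Of 294 pairs of member ratios, 1 had counting intervals on opposite sides of 0. By TMM scaling cox8a was lower in RBI-derived than in CHT-derived normal neutrophils (log2 ratio −0.162). In cut neutrophils cox8a was higher in RBI-derived than in CHT-derived (0.0996). Without TMM scaling RBI-derived was lower in both, at 611.63 against 691.03 CPM in normal and 631.88 against 646.36 CPM in cut. With TMM scaling but without the neutrophils at or above the macrophage UMI limit, the cut values were close, at 882.15 against 874.46 CPM. The opposite direction thus rests on the scaling, and its size in cut on those cells. The difference between the normal and cut ratios was not tested.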

How the results depend on the processing

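The cox6a2, cox8b, ndufaf1 and atp5if1b differences between neutrophils and macrophages kept direction and call in all alternatives run, and cox5b2 in those where it passed the filter (not thinned or without CHT-derived cut), while counts of members moved with the scaling and depth. Leaving out 1 library at a time gave 8 to 9 members higher and 19 to 37 lower in neutrophils than in macrophages, 24 to 50 higher and 1 to 3 lower than in other cells, 36 to 80 higher and 0 to 1 lower in macrophages than in other cells, and 0 higher and 9 to 17 lower in cycling neutrophils. Against macrophages, unscaled CPM gave 4 higher and 81 lower, and thinning 5 lower. Over all genes tested these settings gave 1473 higher and 3685 lower of 10293, and 681 lower of 5793. Neutrophils against other cells gave 24 higher and 8 lower with DESeq2 size factors, 7 and 49 with unscaled CPM and 22 and 1 thinned. DESeq2 gave 5 lower, and leaving out cycling cells 0 lower. Over all genes tested the first 2 settings gave 3029 and 5277, and 1935 and 6928, of 12257. Thinning gave 2010 and 2241 of 7160. Macrophages against other cells gave 32 and 3 with DESeq2 size factors, 21 and 4 with unscaled CPM, 35 and 2 with DESeq2 and 22 and 0 thinned. They gave 2 lower at 10 UMIs or with no filter, and 0 lower without cycling cells. Over all 12037 genes tested the first 3 settings gave 2638 and 4920, 2283 and 5424, and 2388 and 4528. Thinning gave 1498 and 2264 of 6303. Cycling neutrophils gave 2 and 9 with DESeq2 size factors, 9 and 2 with unscaled CPM and 3 lower with DESeq2. They gave 25 lower and 0 higher without neutrophils with 3 or more macrophage UMIs. At 10 UMIs, with no filter, thinned or with a stricter cycling rule 0 were higher. Over all 8301 genes tested the first 2 settings gave 682 and 917, and 903 and 578. No paired analysis of conditions was run, since each has 1 library. For the classes the library is the block: with no replicate block, 7 members were higher and 29 lower against macrophages, and 0 and 0 in cycling neutrophils. Over all genes tested that gave 1955 and 2022 of 10293, and 289 and 43 of 8301. The neutrophil share was 2.168% without lyz. cox5aa reversed to −0.3355 and cox17 to −0.0626 against macrophages with unscaled CPM, and atp5mc1 to −0.1414 with the stricter cycling rule.

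Counts past 1.5-fold moved as follows. In RBI-derived neutrophils, cut against normal, 3 became 5 with unscaled CPM, 1 at 2-fold, 6 at 10 UMIs, 1 at 200 UMIs, 10 thinned and 1 without cycling cells. In CHT-derived neutrophils 8 became 3 at 2-fold, 1 at 200 UMIs, 4 thinned, 5 without cycling cells and 4 in cells of 2000 UMIs or more. Between origins, normal neutrophils had 2 at 2-fold, 5 at 200 UMIs and 4 thinned, and cut neutrophils 1 at 2-fold, 13 at 10 UMIs, 5 at 200 UMIs and 5 without cycling cells. In macrophages, RBI-derived cut against normal gave 1 at 2-fold, 12 at 10 UMIs, 0 at 200 UMIs and 16 thinned, CHT-derived 0 at 2-fold, normal between origins 5 at 2-fold, 9 at 200 UMIs and 31 thinned, and cut between origins 1 at 2-fold, 8 at 10 UMIs, 2 at 200 UMIs and 9 thinned. The cause of these moves was not tested. Thinning leaves fewer UMIs and fewer genes tested. Thinned normal macrophages between origins had 3 of 72 members higher and 28 lower, against 29 and 657 of all 1419 genes tested. Thinned RBI-derived macrophages, cut against normal, had 16 of 44 higher and 0 lower, against 245 and 19 of all 713. In each setting listed, the share of members past the limit, both directions together, was below that of all genes tested.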

Other observations

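The normal neutrophils with under 1% of UMIs in respiratory chain genes had a larger share of their UMIs in some neutrophil transcripts than the remaining neutrophils of their library. The ratios below are of unscaled CPM. These cells had fewer UMIs, with medians of 1699 against 5810 in RBI-derived normal and 2570 against 9268 in CHT-derived normal. The ratios therefore compare shares and not UMIs per cell. mmp13a, a collagenase, was 3.33 times as high in RBI-derived normal and 3.7 times in CHT-derived normal, and the chemokine receptor gene ccr9a 3.51 and 3.99 times. rarab, a retinoic acid receptor gene, was 5.15 and 3.76 times as high, aqp3a, an aquaporin gene, 3.72 and 5.33 times, and the DNA demethylase gene tet1 3.76 and 3.71 times. The mitochondrial subunit gene mt-nd3 was 3.07 and 3.06 times as high. These genes were chosen after their values were seen, both the limit and the ratios come from the same cells, and no test was made.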
